A study of Mus musculus with 65 samples.

Results

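Respiratory complex I, the NADH dehydrogenase that feeds electrons into the mitochondrial respiratory chain, was followed in single HSD2 neurons through the nuclear genes that encode its subunits and helpers. The genes were taken by name, as every entry whose symbol starts with Nduf followed by a, b, c, s or v, which gave 44 of 11875 genes. They comprise 7 core subunits, 29 accessory subunits, 7 assembly factors (Ndufaf1 to Ndufaf7) and Ndufa4, which carries the family name but is now counted with complex IV. RNA had been sequenced from 65 neurons of the nucleus of the solitary tract, a brainstem nucleus that receives visceral signals, in male mice of mixed strain. All animals were Hsd11b2-Cre::Ai9, a cross in which the red protein tdTomato marks every cell where Cre, driven by Hsd11b2, is or once was active. Red cells were picked by hand after papain digestion and made into full-length Smart-Seq2 libraries. The diet label gives 32 neurons of mice on a low-sodium diet and 33 of mice on standard chow. Of the 32 low-sodium cells, 9 had values that summed to 1393471 to 2170050 CPM (counts scaled per 1000000 reads), and these were kept apart as high-sum cells. The other 23 low-sodium cells, called usual-sum cells, and the 33 chow cells summed to 754874 to 1147326 CPM.

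Complex I is an L-shaped machine. Its matrix arm takes electrons from NADH and passes them along iron-sulfur clusters to ubiquinone, and its membrane arm pumps protons. The core subunits do the chemistry and the pumping, the accessory subunits surround and stabilise them, and assembly factors help build the complex and then leave it. Neurons depend heavily on this chain for ATP. The pumping core subunits are encoded by mitochondrial DNA, and 0 of these 7 genes were among the genes used, so the mitochondrially encoded part of the complex was not analysed here.

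Which animal a cell came from is not labelled. Each diet therefore counts as 1 sample, whose cells do not replicate it. No test was run between diets or between sets of cells, and the spread given is that between cells. Reads in the listed genes ran from 218943 to 697841 in high-sum cells, from 50540 to 5319462 in usual-sum cells and from 50078 to 3244893 in chow cells. The enzyme transcript Hsd11b2 was above 0 in 9 of 9, 23 of 23 and 33 of 33 cells, in the same order, and every cell had at least 3 of 8 pan-neuronal markers above 10 CPM. At least 3 markers of 1 non-neuronal list were above 10 CPM in 4 of 9 high-sum cells, 13 of 23 usual-sum cells and 19 of 33 chow cells. The mean complex I level in cells with and without such markers was 5.72 and 5.59 on the log2(CPM + 1) scale in high-sum cells, 7.13 and 7.19 in usual-sum cells, and 7.32 and 7.36 in chow cells. None of the 9 microglial markers was among the genes used. By the numbers in the labels, the high-sum cells were 9 of the 10 low-sodium neurons numbered 42 or higher. The exception, neuron 52, summed to 987611 CPM and had a mean complex I level of 8.12. For the 9 high-sum cells, the scale of their columns, their numbering and any effect of their handling cannot be told apart.

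Complex I transcripts were found in most HSD2 neurons. Of the 44 genes, 35 were above 0 in all 65 cells, where 11.9% of the 10726 genes with a mean of at least 1 were. With every cell thinned to 50000 reads it was 11 of 44, against 5.17% of those genes. At the deposited depth, the mean level over all cells was at least 3 on the log2(CPM + 1) scale for each of the 44. Among the highest was Ndufv1, the flavin-carrying core subunit that binds NADH, at a mean of 8.45, followed by Ndufb8 of the distal membrane arm at 8.23. The lowest level belonged to the assembly factor Ndufaf1, at a mean of 3.32. All 35 genes found in every cell encode structural subunits or Ndufa4. The 9 missed in at least 1 cell were the 7 assembly factors, the membrane arm subunit Ndufb4 and the core subunit Ndufs3.

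Detection of the assembly factors ranged widely. Ndufaf1, which acts early in building the membrane arm, was above 0 in 43 of 65 cells (66.2%, exact binomial 95% interval 53.4 to 77.4%). Ndufaf6 was above 0 in 50 cells (76.9%, 64.8 to 86.5%) and Ndufaf2 in 57 (87.7%, 77.2 to 94.5%). Ndufaf3, a partner of Ndufaf4 in handling the ubiquinone-binding module, was above 0 in 61 cells. Ndufaf4, Ndufaf5 and Ndufaf7 were each above 0 in 62 cells (95.4%, 87.1 to 99.0%). These intervals cover counting error over cells only. A single read stood for 0.160 to 16.1 CPM depending on the cell, so a 0 means that no read was seen at that depth.

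Per kilobase of transcript, which allows levels of different genes to be compared, the highest of the 44 was Ndufa11, a membrane arm subunit that lies where complex I touches other complexes, with a mean of 610 CPM per kilobase over all cells. Ndufb8 of the distal membrane arm followed with 522 CPM per kilobase, then Ndufa4 with 512, Ndufb9 with 446 and Ndufa2 with 422. The core subunits were lower per kilobase than those genes, from 98.9 for Ndufs1, the largest, to 352 for Ndufs7. Some accessory subunits lay below all core subunits, such as Ndufs4 with 92.0 CPM per kilobase. Assembly factors lay between 17.6 CPM per kilobase for Ndufaf4 and 87.2 for Ndufaf5. The per-kilobase level depends on which transcript a cell makes. For Ndufb2 the annotated principal transcript has 4371 bases and the shortest coding one 455, so its 40.4 CPM per kilobase is uncertain. For Ndufab1, the mitochondrial acyl carrier protein, the lengths are 3479 and 1416 bases.

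Several of the genes had levels that could have been shared with other loci. Ndufb4 is matched by the processed pseudogene Ndufb4c over 390 bases at 100% identity, and Ndufs5 by BC002163, itself among the genes used, over 319 bases at 99.4%. Ndufs3 is matched over 792 bases at 98.6%, and Ndufa12, Ndufab1, Ndufb3, Ndufb11 and Ndufs6 also have a processed pseudogene of at least 95% identity over at least 200 bases. Exons of a gene on the opposite strand cover 39.0% of the exon bases of Ndufb6 and 30.0% of those of Ndufa13, and a gene on the same strand covers 28.6% of those of Ndufb9. Whether the authors' counting used strand, and how it treated reads with several matches, is not given in the sources used here.

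**Figure D1:**
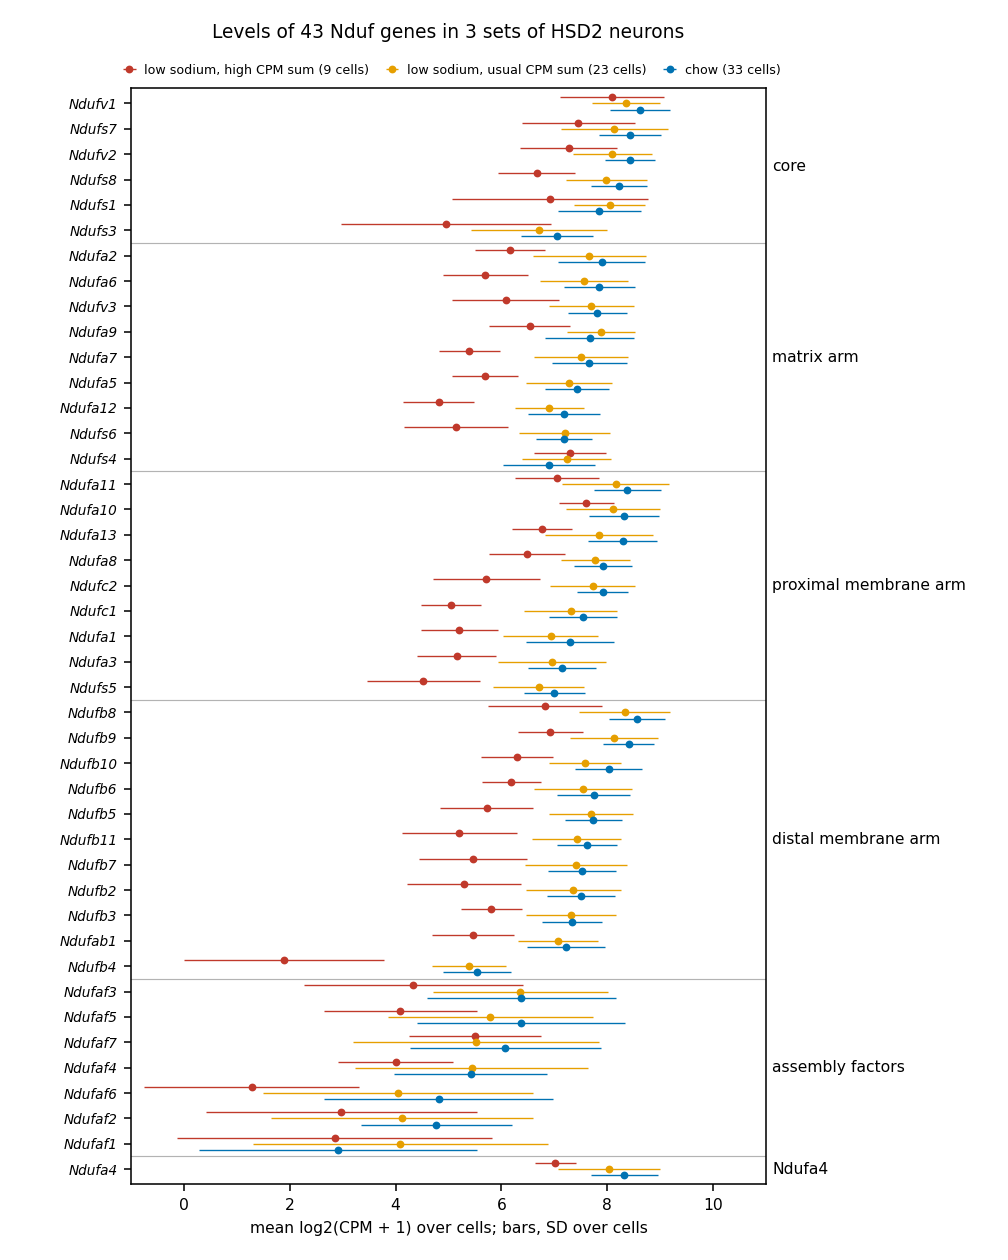
Mean log2(CPM + 1) of each of 43 Nduf genes, with bars for the SD over cells, in high-sum low-sodium cells (9), usual-sum low-sodium cells (23) and chow cells (33), grouped by role. Usual-sum and chow points lie close together for most genes, high-sum points lie to their left in nearly every row, and the assembly factors are lower and wider than the subunits.

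The promoters of a few members carry the letters bound by NRF1, a transcription factor known for activating respiratory chain genes. In windows from 250 bases before to 50 bases after the RefSeq gene start (GRCm38.p6), the letters GCATGCGC or their reverse complement GCGCATGC occurred in 5 of 39 members with a window (12.8%). The same letters were in 5.76% of the 8882 windows of genes used and in 2.80% of all 27025 windows. In Ndufa11, Ndufa6, Ndufa8 and Ndufaf4 they lay before the RefSeq start. For Ndufa8 they lie inside the gene as GENCODE vM21 draws it, which starts farther upstream. The stretches read 5′ to 3′ on the gene's strand, and capitals mark the letters on either strand, which overlap in Ndufa11 and Ndufaf4.
Ndufa11, chr17:56717676-56717735, plus strand: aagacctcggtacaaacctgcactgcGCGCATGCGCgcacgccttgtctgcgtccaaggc
Ndufa6, chr15:82354341-82354400, minus strand: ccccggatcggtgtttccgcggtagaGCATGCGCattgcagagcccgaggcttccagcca
Ndufa8, chr2:36049339-36049372, minus strand: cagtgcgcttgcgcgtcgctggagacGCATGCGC
Ndufaf4, chr4:24897944-24898003, plus strand: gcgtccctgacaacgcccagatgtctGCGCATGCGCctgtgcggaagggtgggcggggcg
The core of the ETS family site, CCGGAAG on either strand, which GABP binds, was in 5 of the 39 member windows (12.8%) against 18.0% of windows of genes used. The YY1 core AAGATGGC was in 7 of 39 (17.9%) against 4.92%, always after or across the gene start. None of the 39 windows held both the NRF1 and the ETS letters. Among the 4 genes shown, Ndufa11 had the highest and Ndufaf4 the lowest level per kilobase of all 44. A match describes the letters only.

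In the high-sum low-sodium cells complex I transcripts were lower on average than in the other cells, by an amount that depended on the scale used. The 44 genes together took 0.232% ± 0.045 of a cell's CPM sum in high-sum cells (SD over 9 cells), 1.01% ± 0.41 in usual-sum cells (23 cells) and 1.07% ± 0.28 in chow cells (33 cells). The share does not depend on the scale of a column, but it is divided by the sum that chose the high-sum cells. Undivided, the 44 genes summed to 3837 ± 786 CPM in high-sum cells, 9302 ± 3964 CPM in usual-sum cells and 9763 ± 2368 CPM in chow cells. On that scale 2 of the other 56 cells, the lowest at 4616 CPM, lay below the highest high-sum cell at 4719 CPM. The lowest, median and highest shares were 0.182%, 0.235% and 0.334% in high-sum cells, 0.541%, 0.928% and 1.74% in usual-sum cells, and 0.529%, 0.997% and 1.58% in chow cells. By share, every high-sum cell thus lay under each of the other 56 cells, whereas usual-sum and chow cells covered the same range. On the log2(CPM + 1) scale the mean over the 44 genes was 5.64 ± 0.28 in high-sum cells, 7.16 ± 0.58 in usual-sum cells and 7.34 ± 0.35 in chow cells, and the highest high-sum cell (6.02) was again below the lowest of the other 56 (6.20).

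**Figure D2:**
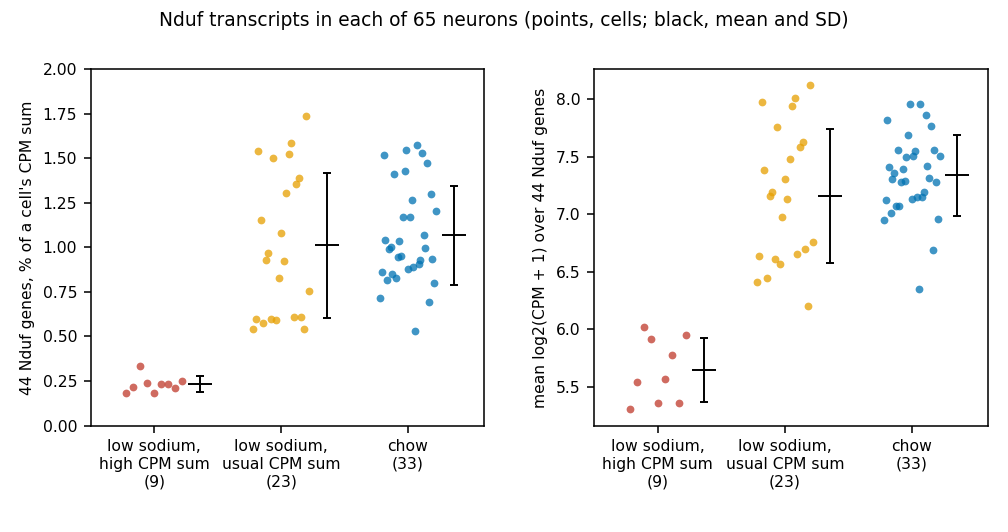
Left, the 44 Nduf genes as a percent of each cell's CPM sum; right, their mean log2(CPM + 1) in the cell. Points are cells, and black marks give the mean and SD over cells. The 9 high-sum cells end at 0.334%, below the lowest other cell at 0.529%, while usual-sum and chow cells overlap.

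Gene by gene, 43 of 44 had a lower mean in high-sum than in usual-sum cells, where 54.2% of the 10726 genes whose mean log2(CPM + 1) over the 65 cells reached 1 did. The difference of means was under -0.5 for 41 of 44, against 38.0% of those genes. The median difference over the 44 was -1.50, and over all genes -0.14. As a ratio of mean CPM, high-sum over usual-sum, the 44 ran from 0.134 for Ndufb4 to 0.967 for Ndufs4. Only 2 genes, Ndufb5 and Ndufa12, had every high-sum cell under every usual-sum cell, a pattern found in 0.0932% of all genes. For Ndufb5 alone among the 44 the high-sum cells were also under every chow cell, which was not counted over all genes.

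Among the core subunits all 7 had a lower mean in high-sum cells, with a median difference of -1.06. Ndufv1 was nearly level, at 8.09 ± 0.98 in high-sum cells, 8.36 ± 0.64 in usual-sum cells and 8.62 ± 0.57 in chow cells, a difference of -0.27 between the first and second set. Its lowest, median and highest values were 6.90, 7.73 and 9.72 in high-sum cells, 6.55, 8.43 and 9.57 in usual-sum cells, and 6.61, 8.65 and 9.90 in chow cells, so that the ranges overlap. Ndufs7, which lies at the ubiquinone site, differed by -0.67, and Ndufv2, the partner of Ndufv1, by -0.83. Ndufs1, which carries several iron-sulfur clusters, differed by -1.13 and spread widely in high-sum cells, from 3.04 to 9.13. Ndufs8, another iron-sulfur subunit, differed by -1.32 (6.67 ± 0.73 in high-sum and 7.98 ± 0.77 in usual-sum cells). Ndufs3, a core subunit of the ubiquinone module, had the largest core difference, -1.76, with 4.95 ± 1.99 in high-sum and 6.71 ± 1.28 in usual-sum cells, and in 1 high-sum cell it was at 0.

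The accessory subunits of the matrix arm had a median difference of -1.62, with 8 of 9 lower. Ndufs4, a subunit of the NADH-oxidising module whose loss in mice gives a model of Leigh syndrome, was the exception. It was at 7.30 ± 0.69 in high-sum cells (6.14 to 8.16, median 7.35), at 7.23 ± 0.84 in usual-sum cells (5.92 to 9.24, median 7.17) and at 6.90 ± 0.87 in chow cells (3.99 to 8.29, median 7.07). The 3 ranges overlap, and the difference between high-sum and usual-sum cells was 0.064. Ndufs4 lies on chromosome 13 (chr13:114287795-114388258, GRCm38, minus strand) and its transcript has 1698 bases in 5 exons. Ndufa7 was the lowest of this arm, with a difference of -2.11 (5.39 ± 0.57 in high-sum and 7.50 ± 0.89 in usual-sum cells). Ndufa12, which is related to the assembly factor Ndufaf2 and takes its place in the finished complex, was at 4.81 ± 0.67 in high-sum cells (3.39 to 5.51, median 5.03), against 6.91 ± 0.66 in usual-sum cells (5.86 to 8.22, median 7.00) and 7.18 ± 0.68 in chow cells (5.27 to 8.56, median 7.22). The high-sum and usual-sum ranges of Ndufa12 do not overlap.

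All 9 proximal membrane arm subunits were lower in high-sum cells, by a median of -1.72. Ndufc1 differed by -2.26 (5.05 ± 0.57 in high-sum and 7.31 ± 0.88 in usual-sum cells) and Ndufs5, a subunit on the intermembrane side, by -2.18 (4.53 ± 1.07 and 6.71 ± 0.86 in the same order). Ndufa10, a relative of nucleoside kinases, differed least, by -0.50 (7.60 ± 0.52 in high-sum and 8.11 ± 0.89 in usual-sum cells). Ndufa11 was at 7.06 ± 0.80 in high-sum cells (6.17 to 8.60, median 6.63), at 8.16 ± 1.01 in usual-sum cells (6.78 to 9.86, median 8.13) and at 8.38 ± 0.63 in chow cells (6.54 to 9.72, median 8.34), so that its 3 ranges overlap.

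The distal membrane arm held the largest difference of the 44. Its 11 subunits were all lower in high-sum cells, by -1.21 (Ndufb9) to -3.50 (Ndufb4), with a median of -1.61. Ndufb4 was at 1.89 ± 1.90 in high-sum cells (0 to 4.46, median 2.20), against 5.39 ± 0.70 in usual-sum cells (4.28 to 6.49, median 5.30) and 5.54 ± 0.64 in chow cells (4.16 to 6.89, median 5.56). It was at 0 in 4 of the 9 high-sum cells and above 0 in all 56 others, and the high-sum range overlaps the others only at its upper end. Ndufb4 lies on chromosome 16 (chr16:37647170-37654453, GRCm38, minus strand, 3 exons) and shares 390 bases with Ndufb4c, as given above. Ndufb11 followed with -2.22 (5.20 ± 1.08 in high-sum and 7.42 ± 0.84 in usual-sum cells). Ndufb5 was at 5.72 ± 0.88 in high-sum cells (4.11 to 6.50, median 5.95), against 7.69 ± 0.80 in usual-sum cells (6.68 to 9.65, median 7.38) and 7.74 ± 0.53 in chow cells (6.53 to 8.86, median 7.76).

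The 7 assembly factors were all lower in high-sum cells, with a median difference of -1.44, but their cells scattered more than those of the subunits. Ndufaf6 differed by -2.77, with 1.28 ± 2.03 in high-sum and 4.05 ± 2.55 in usual-sum cells, and was above 0 in 3 of 9 high-sum cells, 18 of 23 usual-sum cells and 29 of 33 chow cells. Ndufaf3 differed by -2.02 (4.34 ± 2.07 in high-sum and 6.35 ± 1.65 in usual-sum cells), and Ndufaf5, which in humans hydroxylates an arginine of NDUFS7, by -1.70 (4.09 ± 1.45 and 5.79 ± 1.94 in the same order). Ndufaf4 differed by -1.44 (4.00 ± 1.08 and 5.44 ± 2.21), Ndufaf1 by -1.24 (2.85 ± 2.97 and 4.09 ± 2.78) and Ndufaf2 by -1.14 (2.97 ± 2.56 and 4.11 ± 2.48). Ndufaf7, an arginine methyltransferase, differed by -0.017 (5.50 ± 1.24 and 5.51 ± 2.32). For 5 of the 7 factors, all but Ndufaf6 and Ndufaf3, the difference was below the SD of the usual-sum cells. Ndufa4 differed by -1.01 (7.02 ± 0.38 in high-sum and 8.03 ± 0.97 in usual-sum cells).

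**Figure D3:**
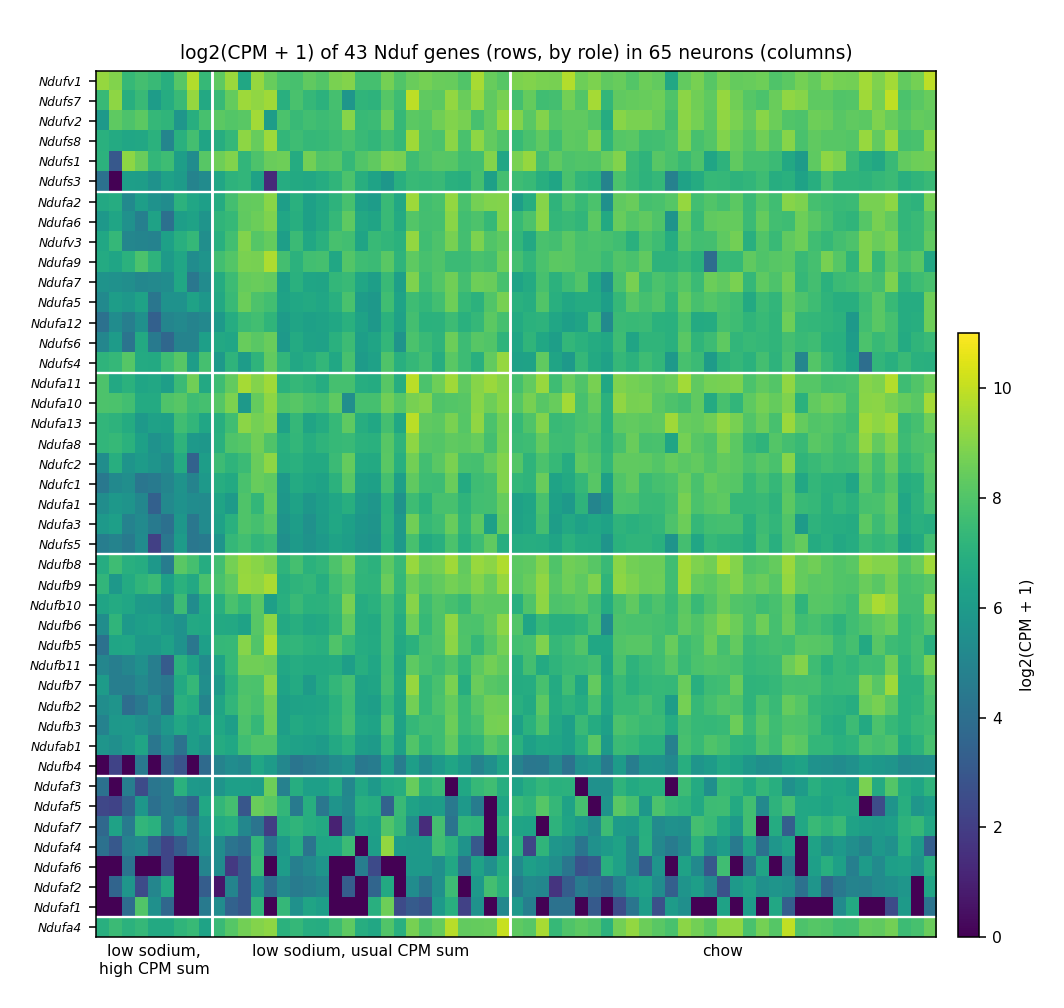
Each column is 1 neuron and each row 1 of 43 Nduf genes, ordered by role as in the plot of means by set; colour gives log2(CPM + 1). The block of 9 high-sum cells at the left is darker in most rows, some usual-sum columns are darker than others across many rows at once, and cells at 0 (darkest) fall mainly in the assembly factors and in Ndufb4.

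Transcript length moved with the same contrast across all genes. In high-sum minus usual-sum cells the median difference was -0.84 in the shortest 20% of genes (up to 1776 bases). It was -0.24, -0.055 and 0.12 in the bands of genes between, and 0.45 in the longest 20% (5160 bases or more). Of the 44 complex I genes 39 were in the shortest 20% and 30 in the shortest 10% (up to 1280 bases), where all genes had a median of -1.16 and those 30 a median of -1.71. Other genes of the shortest 20% took 9.27% ± 1.04 of the CPM sum in high-sum cells, 20.2% ± 4.0 in usual-sum cells and 21.0% ± 3.1 in chow cells, while the longest 20% took 27.3% ± 3.7, 16.9% ± 3.2 and 15.9% ± 3.3.

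With the median of all genes of like length and like level taken off, the complex I difference became smaller. The median over the 44 genes was then -0.63, with 39 of 44 below 0, where 49.9% of all genes were. By role the adjusted median was -0.15 for the core subunits (4 of 7 below 0), -0.70 for the matrix arm (8 of 9), -0.81 for the proximal membrane arm (9 of 9), -1.03 for the distal membrane arm (11 of 11) and -0.57 for the assembly factors (6 of 7). Ndufv1 and Ndufs7 lay above genes of like length and level, by 0.65 and 0.24, as did Ndufs4 by 0.98 and Ndufaf7 by 1.12. Ndufb4 lay below them by -2.36. Ndufb2 had an adjusted value of -2.50 and Ndufab1 of -1.70, both placed by their long principal transcripts and so uncertain. Split at the middle by coding length, the 22 shorter members (210 to 504 bases) had a median difference of -1.83 and the 22 longer ones (516 to 2181 bases) -1.29. Split by transcript length the medians were -1.54 and -1.39.

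**Figure D4:**
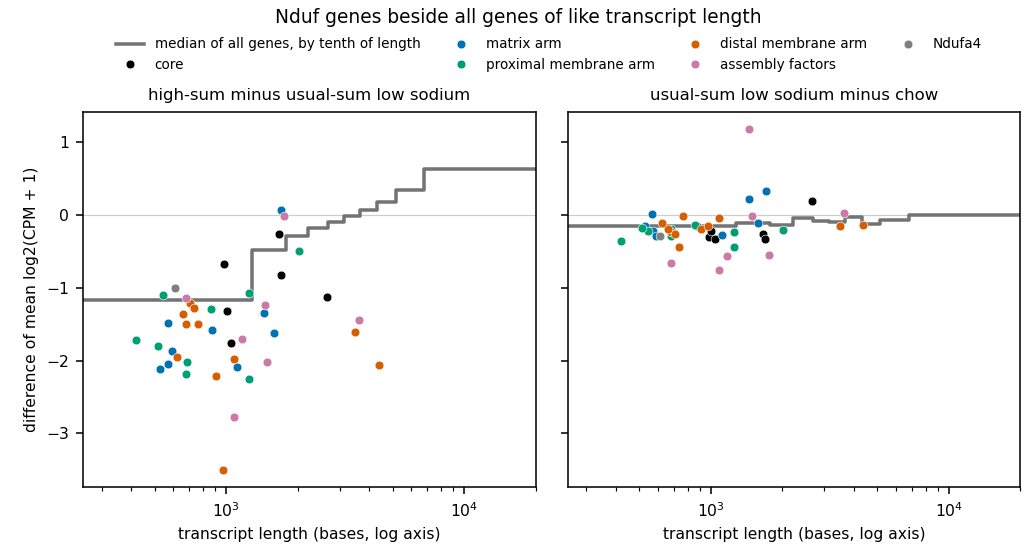
Difference of mean log2(CPM + 1) for each of 43 Nduf genes against its transcript length (log axis), high-sum minus usual-sum low-sodium cells on the left and usual-sum low-sodium minus chow cells on the right; the grey steps are medians of all genes by bands of 10% of genes in length order. On the left most Nduf genes lie below the step for their length, with Ndufs4 at 0.064 and Ndufb4 at -3.50 as the ends; on the right most lie close to the step, with Ndufaf1 at 1.17 above it.

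Other short and abundant gene groups were low in the high-sum cells as well. The median difference was -1.04 over 39 genes of respiratory complexes II to V, -1.75 over 73 cytoplasmic ribosomal protein genes and -1.52 over 68 mitochondrial ribosomal protein genes, beside -1.50 for complex I. Adjusted for length and level, these medians were -0.24, -0.81 and -0.60, beside -0.63. The share of CPM in high-sum cells over that in all other cells was 0.222 for complex I and 0.449 for complexes II to V. The same ratio of shares was 0.243 for cytoplasmic and 0.269 for mitochondrial ribosomal proteins. For complex I the ratio of undivided CPM was 0.401. In the share of complexes II to V, 7 of the other 56 cells lay under the highest high-sum cell, and 0 did so for complex I and for either ribosomal list.

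Assembly factors that carry other names varied more. Of 11 complex I assembly factors outside the Nduf names, 9 had a lower mean in high-sum than in usual-sum cells, with a median of -0.46. Timmdc1, an early membrane arm factor, was at 1.25 ± 2.0 in high-sum cells and 4.27 ± 1.75 in usual-sum cells. Tmem70 was at 4.43 ± 1.90 and 6.50 ± 1.45 in the same order, and Acad9, which works with Ndufaf1, at 5.46 ± 2.54 and 4.95 ± 2.60. Of 13 regulators of mitochondrial biogenesis, 6 had a lower mean in high-sum cells, where 54.2% of all genes did. The other 7 had a higher mean, and the median difference over the 13 was 0.26. Ppargc1a, a coactivator that drives respiratory genes, was at 4.22 ± 2.29 in high-sum and 6.28 ± 1.96 in usual-sum cells, and Tfam, which maintains mitochondrial DNA, at 1.93 ± 2.14 and 4.26 ± 2.35. Pprc1, a relative of Ppargc1a, was higher, at 4.54 ± 3.04 and 2.22 ± 2.43, and Nrf1 was at 2.11 ± 1.80 and 2.68 ± 3.12.

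Between usual-sum low-sodium cells and chow cells complex I differed little. The median difference over the 44 genes was -0.20, against -0.092 over all genes, and 38 of 44 had a lower mean in usual-sum cells, where 56.9% of all genes did. A difference under -0.5 was found for 4 of 44, against 23.5% of all genes, and all 4 were assembly factors. These were Ndufaf6 (4.05 ± 2.55 in usual-sum and 4.81 ± 2.17 in chow cells), Ndufaf2 (4.11 ± 2.48 and 4.77 ± 1.42), Ndufaf5 (5.79 ± 1.94 and 6.37 ± 1.96) and Ndufaf7 (5.51 ± 2.32 and 6.07 ± 1.80). Ndufaf1 stood at the other end, 1.17 higher, with 4.09 ± 2.78 in usual-sum cells (above 0 in 18 of 23) and 2.92 ± 2.63 in chow cells (above 0 in 20 of 33). Each of these differences is below the SD between cells.

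Among the subunits the largest differences between usual-sum and chow cells were -0.44 for Ndufb10 (7.58 ± 0.68 in usual-sum and 8.02 ± 0.63 in chow cells) and for Ndufa13 (7.85 ± 1.02 and 8.29 ± 0.65). Higher in usual-sum cells were Ndufs4 by 0.33, Ndufa9 by 0.21 (7.88 ± 0.64 and 7.67 ± 0.84) and Ndufs1 by 0.19 (8.04 ± 0.67 and 7.85 ± 0.79). Ndufs6 and the assembly factor Ndufaf4 were level, with differences of 0.015 and 0.019. Core subunits had a median of -0.27, matrix arm subunits of -0.15, proximal membrane arm subunits of -0.22 and distal membrane arm subunits of -0.15. Adjusted for length and level the median over the 44 genes was -0.071, with 31 of 44 below 0, against 49.9% of all genes.

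The direction of this small difference turned with the reads of the cells compared. Within both sets, cells with many reads had less complex I on average. In usual-sum cells the complex I share was 0.706% ± 0.202 in the 12 cells over 1000000 reads and 1.34% ± 0.29 in the 11 cells with fewer, and in chow cells it was 0.862% ± 0.150 in 10 cells and 1.16% ± 0.27 in 23. When cells with at most 1000000 reads were compared, a choice made after the values were seen, 8 of 44 genes had a lower mean in usual-sum than in chow cells, against 58.7% of all genes, and the median over the 44 was 0.23. All 9 matrix arm subunits, 10 of 11 distal and 8 of 9 proximal membrane arm subunits were then higher in usual-sum cells. Ndufaf1 (1.18), Ndufs4 (0.71) and Ndufa9 (0.71) were highest and Ndufaf5 (-0.66), Ndufs3 (-0.54) and Ndufaf7 (-0.40) lowest. The difference between high-sum and usual-sum cells was larger among these cells, with a median of -2.09 and 43 of 44 lower, where 47.6% of all genes were. For all low-sodium against chow cells of at most 1000000 reads the median was -0.70, with 42 of 44 lower against 57.7% of all genes.

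**Figure D5:**
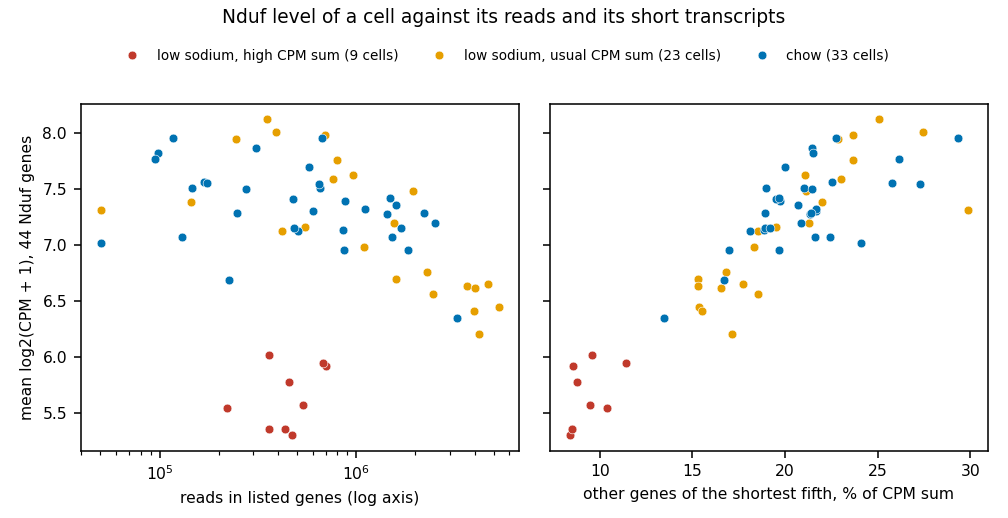
Mean log2(CPM + 1) of the 44 Nduf genes in each cell against the cell's reads in listed genes (left, log axis) and against the percent of its CPM sum taken by other genes among the shortest 20% (right). Usual-sum and chow cells slope down with reads and up with short transcripts, and the 9 high-sum cells lie apart at the bottom with 218943 to 697841 reads and 8.36 to 11.4% short transcripts.

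Taking all low-sodium cells together, the median difference from chow was -0.60, with 42 of 44 lower (57.9% of all genes) and 34 of 44 under -0.5 (25.2% of all genes). Without the 9 high-sum cells the median was -0.20. The lowest were Ndufaf6 (-1.54, with 3.27 ± 2.70 in low-sodium and 4.81 ± 2.17 in chow cells) and Ndufb4 (-1.14, with 4.40 ± 1.96 and 5.54 ± 0.64). The others among the 6 lowest were Ndufaf5 (-1.05), Ndufaf2 (-0.98), Ndufs5 (-0.91) and Ndufc1 (-0.87). Ndufaf1 (0.82) and Ndufs4 (0.34) were the 2 genes with a higher mean in low-sodium cells, and Ndufs1 (-0.13) and Ndufa9 (-0.17) came next. As a log2 ratio of mean CPM, in place of a difference of mean logs, 9 of 44 were under -0.5, against 11.3% of all genes.

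From cell to cell most subunits moved together in usual-sum and chow cells. The same correlations are not given here for other genes. The median correlation between 2 of the 44 genes was 0.11 over the 9 high-sum cells, 0.47 over the 23 usual-sum cells and 0.29 over the 33 chow cells. Genes of 1 cell share its library, its depth and its scale, so these are descriptions. In usual-sum cells Ndufa8, a subunit facing the intermembrane space, followed the mean of the others most closely (r = 0.92), then Ndufb8, Ndufa3 and Ndufa4 (each 0.91). Ndufs1 did not (r = -0.33 in usual-sum and -0.30 in chow cells), nor did Ndufaf7 (-0.21 and -0.31) or Ndufaf5 (-0.21 and -0.09). Ndufaf1 (0.08 and -0.07) and Ndufaf4 (0.11 and 0.07) were also near 0 in both sets. In usual-sum cells alone r was near 0 for Ndufs3 (-0.09) and Ndufaf3 (-0.05), and in chow cells alone for Ndufa9 (0.003) and Ndufb5 (0.098).

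The complex I level of a cell followed that of complexes II to V, with r = 0.51 over high-sum, 0.91 over usual-sum and 0.74 over chow cells. In high-sum cells this r was 0.10 without the 2 cells farthest from the median. Its r with cytoplasmic ribosomal proteins was 0.83 over usual-sum and 0.62 over chow cells, and with mitochondrial ribosomal proteins -0.10 and 0.41. Without the 2 cells farthest from the median, these were 0.86 and 0.40 for cytoplasmic and 0.27 and 0.21 for mitochondrial ribosomal proteins, so that the sign of -0.10 rests on those cells. It also followed the share of other short transcripts, with r = 0.49, 0.82 and 0.67 over the same sets, and ran against the log2 of reads in usual-sum cells (-0.70) and chow cells (-0.40), but not in high-sum cells (0.35). The part of length and depth in the joint variation was not tested. For members in the middle of their range of levels, the spread between cells was smaller than for other genes of like level. In chow cells the median SD was 0.644 for the 22 members in the middle of their range of levels and 0.861 for 660 other genes between the same levels. In high-sum cells it was 0.759 for 22 members and 2.10 for 1947 other genes, and in usual-sum cells 0.843 for 22 members and 1.03 for 758 other genes.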

How the data were processed

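The authors used featureCounts 1.4.6, HISAT2 2.0.5, SAMtools 0.1.19, bcl2fastq and Picard 2.5.0 on build mm10 (GRCm38), per the submitters' processing notes. Not given in the sources used here are settings, annotation and scaling total. The labels' extraction protocol names Arc-ME, while the tissue label, followed here, is the nucleus of the solitary tract. The authors deposited log2(CPM + 1) per gene and cell. Of 12015 lines, 121 share a name and 19 carry a number as name; these 140 stayed in cell totals only. CPM were obtained by undoing the log2. In every cell the low values (up to 20 steps) were 100% whole multiples of a smallest step, within 0.1 steps, and 1 step was taken as 1 read; no molecular identifiers are described. CPM sums over 1000000, in 17 cells, cannot come from dividing by all listed reads of the same cell alone. Whether a further scaling factor was applied to each cell is not given in the sources used here.

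Cells are not replicates of a diet, so no test was run. Differences are of mean log2(CPM + 1), which a pseudocount of 1 CPM shrinks at low levels and which is not the fold of mean CPM. Background counts use 10726 genes with a mean of at least 1, of which 94.8% have a GENCODE vM21 transcript length (principal transcript). Length and level adjustment subtracts the median of all genes in the same of 5 length and 5 level bands. It was tried on simulated data for high-sum minus usual-sum cells. There 100 genes lowered by 1.5 and 100 raised by 1 among 11137 came out at 1.50 lower and 0.96 higher (medians). The changed genes were drawn without regard to length, and the simulated cells had a single depth. How well 5 length bands suit the members, which are mostly short, was therefore not shown. With narrower length bands the members' adjusted median for these sets was -0.50, beside -0.63. Copies were searched with BLAST 2.17.0; promoters are from RefSeq. Python 3.11.15, numpy 2.4.6 and pandas 2.3.3 were used. The members, lists, sets of cells and comparisons were chosen with earlier results of these data known. 1 core subunit, counted in every total over the 44, is not reported singly here. Named genes are the other core subunits, the assembly factors, the 6 ends of each comparison on either side and the 5 highest per kilobase. Ndufa8, Ndufb5, Ndufa12, Ndufa6, Ndufb8, Ndufa3, Ndufb2 and Ndufab1 were added after their values were seen, as were the genes named from the other lists.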

Additional observations from a re-analysis of the deposited data

Results flagged for a closer look

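In the 9 high-sum cells, 46 measures (the share, the mean level and each of the 44 genes) were examined for a single cell far from the other 8, by its gap to the nearest cell over the whole range (Dixon's 95% limit, 0.493 for 9 cells). Such a limit is passed by chance in about 1 of 20 groups, and 6 of 46 passed it. Low-sodium neuron 50 had the highest complex I share, 0.334% of its CPM sum, with the next cell at 0.249%. The share is divided by the sum that chose these cells, and neuron 50 had the lowest sum of the 9, 1393471 CPM. Undivided, its complex I total of 4661 CPM lay below the 4719 CPM of neuron 51. Neuron 48 had the lowest Ndufa1, at 3.39 on the log2(CPM + 1) scale (next 5.07), and the lowest Ndufs5, at 2.07 (next 4.37). Neuron 51 had the lowest Ndufc2, at 3.45 (next 5.34). Neuron 49 had the lowest Ndufs8, at 5.03 (next 6.43). Ndufs3 was at 0 in neuron 45, with the next cell at 4.11. Such low values rest on few reads or none. A single read stood for 9.91 CPM in neuron 51 and 3.18 CPM in neuron 48, about the values of Ndufc2 and Ndufs5 there.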

How the results depend on the processing

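No paired analysis was possible because the labels pair no cells across diets and no test was run. Of 210 values under other settings, 194 stayed within the spread between cells or within 1.5 times the count, 14 moved and 2 reversed. Some of the 194 could not move, because settings that changed the lowest mean level allowed kept the same 44 genes. The spread used, 0.351, is wider than the usual-sum minus chow median of -0.20, so staying within it says little about that difference. With cells of at most 1000000 reads, chosen after seeing the data, the usual-sum minus chow median reversed to 0.23 and its adjusted value to 0.15, with 8 genes lower and 2 under -0.5 (32.9% of all genes), and the high-sum minus usual-sum median was -2.09 (adjusted -1.06). The count under -0.5 in usual-sum minus chow cells was 1 with a pseudocount of 10 CPM (7.53% of all genes), 8 with cells thinned to 50000 reads (26.5%), 0 with the log2 ratio of mean CPM (13.1%), 2 with medians over cells (21.5%) and 0 without assembly factors and Ndufa4 (23.5%). With that ratio, the count under -0.5 in all low-sodium minus chow cells was 9 (11.3%). Thinning gave medians of -2.58 for high-sum minus usual-sum cells and -1.04 for low-sodium minus chow cells, and found 11 genes in all 65 cells. Rescaling each cell to a CPM sum of 1000000 gave -2.34, where the median of all genes was -0.65. Leaving out each high-sum cell in turn, also chosen afterwards, gave medians of -1.59 to -1.42, adjusted -0.73 to -0.56, with 42 to 44 genes lower and 40 to 41 under -0.5. Over all settings the adjusted median of high-sum minus usual-sum cells ran from -1.06 to -0.48. The cause of these shifts was not tested. A gene at 0 may lie below 1 read, and the scale of the 9 high-sum columns is unknown.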
